A study of Homo sapiens with 21 samples.

Results

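The genes described here are 216 well-expressed long noncoding RNAs (lncRNAs) of RS4;11 cells, out of 66738 genes in the count table. They are the genes annotated as lncRNA on the autosomes whose mean over the 9 RNA libraries was at least 10 CPM (a gene's count scaled to a common library total), leaving out GAS5 and the SNHG genes, of which 17 also reached that level. The other 16207 of the 16423 autosomal lncRNAs outside those families lay under the threshold. The values that chose the set are therefore its RNA levels, which are given as a description. The last genes inside were SMC2-AS1 at 10.0072 CPM and AL365295.1 at 10.05 CPM, and the first outside were FO393414.3 at 9.98 CPM and PTOV1-AS2 at 9.93 CPM. A gene could pass through the medium in which it was high: 43 of the 216 averaged under 10 CPM in complete medium, 13 without asparagine and 9 without asparagine but with iron, while 156 reached 10 CPM in all 3 media. For a gene under 10 CPM in a medium, differences from that medium follow in part from this choice and are a description.

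RS4;11 is a human cell line from B-cell precursor acute lymphoblastic leukaemia that carries the KMT2A-AFF1 fusion gene. The study asked how withdrawal of asparagine, an amino acid that leukaemic lymphoblasts take up from outside, acts on histone methylation and transcription. For 24 h the cells had medium with asparagine (+Asn) or lacking it (-Asn), or the latter supplied with iron (-Asn+Fe), as ferric nitrate at 10 µM together with hinokitiol at 0.75 µM, a compound able to shuttle iron through membranes. Each medium gave 3 RNA libraries, 3 libraries of chromatin immunoprecipitated for trimethylated lysine 4 of histone H3 (H3K4me3), and 1 input library. All groups are of this 1 line. No group received iron or hinokitiol in complete medium, and the ferric nitrate and hinokitiol were given together, so their parts cannot be told apart. The labels do not tell whether a medium's libraries stem from different cultures. P-values therefore rest on the spread among these libraries, and that spread may be technical only.

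The RNA libraries held 29362707 to 42478518 counts, and the levels given are CPM scaled by edgeR's trimmed-mean factors (TMM), with the SD over 3 libraries. Of 9 markers of precursor B cells, all were between 25.3 and 1379 CPM in every library, while 3 T-cell markers stayed at or under 0.0983 CPM and 3 erythroid markers at or under 0.0491 CPM. The myeloid markers MPO, LYZ and CD14 stayed at or under 1.45 CPM, and CSF1R lay between 9.16 and 17.0 CPM. In such bulk samples, fewer cells of a type and less RNA per cell cannot be told apart. The -Asn replicate 1 stood apart from the other libraries of its medium: the chi-square per degree of freedom between counts was 40.3 and 44.6 against replicates 2 and 3, and 6.14 between those. Mitochondrial genes took 5.21 to 7.40% of counts over the 9 libraries. Counts of called lncRNAs are given below with that library and, for -Asn against +Asn, without it.

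Long noncoding RNAs are transcripts without a long reading frame, made by the same polymerase as messenger RNAs, and many start back to back with a protein-coding gene at a shared promoter. Some act as RNAs in the nucleus, where MALAT1 lies in speckles and NEAT1 builds paraspeckles, some serve mainly as precursors of microRNAs or small nucleolar RNAs, and for most no role is known. H3K4me3 marks nucleosomes next to active transcription start sites, of coding and noncoding genes alike, and the enzymes that remove it are oxygenases that need iron.

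Of the 216 lncRNAs, 13 held 26 annotated microRNA genes within their span, and the following mature sequences, from RefSeq (GRCh38.p14), show what 4 hosts described below carry, chosen as listed microRNA hosts, and a further gene with the same seed as 1 of them. The seed, bases 2 to 8, which pairs with target RNAs, is in capitals. MIR17HG, the primary transcript of the miR-17/92 cluster, holds 6 microRNA genes. Within it miR-17-5p and miR-20a-5p share the seed AAAGUGC, from which miR-18a-5p departs, and miR-19a-3p and miR-19b-3p share GUGCAAA.
hsa-miR-17-5p: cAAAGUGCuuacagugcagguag
hsa-miR-20a-5p: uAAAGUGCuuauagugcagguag
hsa-miR-18a-5p: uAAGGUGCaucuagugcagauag
hsa-miR-19a-3p: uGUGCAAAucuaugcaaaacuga
hsa-miR-19b-3p: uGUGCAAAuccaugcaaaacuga
hsa-miR-92a-3p: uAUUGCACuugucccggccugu
DLEU2 holds miR-15a and miR-16-1, whose 5p strands share the seed AGCAGCA.
hsa-miR-15a-5p: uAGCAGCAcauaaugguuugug
hsa-miR-16-5p: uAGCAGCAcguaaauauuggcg
MIR99AHG holds miR-99a, let-7c and miR-125b-2. The seed of let-7c-5p, GAGGUAG, is also that of let-7a-5p, let-7f-5p and let-7d-5p, which lie in the span of AL158152.1.
hsa-miR-99a-5p: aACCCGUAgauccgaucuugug
hsa-let-7c-5p: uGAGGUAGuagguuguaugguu
hsa-miR-125b-5p: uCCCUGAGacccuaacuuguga
hsa-let-7a-5p: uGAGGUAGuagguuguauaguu
hsa-let-7f-5p: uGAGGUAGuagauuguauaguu
hsa-let-7d-5p: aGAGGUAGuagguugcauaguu
MIR3142HG holds miR-146a.
hsa-miR-146a-5p: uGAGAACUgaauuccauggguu
The libraries measured the host transcripts. Mature microRNAs were not measured.

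The promoters of 5 lncRNAs are printed because RNA and H3K4me3 are set side by side there: at MALAT1 and LINC00662 the RNA was higher and the mark wider without asparagine, at GABPB1-AS1 the RNA was higher and no width change was called, and at TMPO-AS1 and LINC01108 the RNA was lower and the mark narrower. The width calls are without centring on library medians, and the ratios are given below beside the median over all regions. Each window holds the 250 bases before and 50 after the start that RefSeq annotates, which can differ from the first base of the count table's gene. Coordinates are of GRCh38.p14, whose chromosomes are those of hg38. Every window lies inside an H3K4me3 region called in all 9 libraries. Capitals mark TGACNNNGC, a core of the antioxidant response element, and no match to TGATGNAA, the C/EBP-ATF element bound by ATF4, or to CACGTG, the E-box, was found in these 5 windows on either strand.
MALAT1, chr11:65497488-65497787, plus strand: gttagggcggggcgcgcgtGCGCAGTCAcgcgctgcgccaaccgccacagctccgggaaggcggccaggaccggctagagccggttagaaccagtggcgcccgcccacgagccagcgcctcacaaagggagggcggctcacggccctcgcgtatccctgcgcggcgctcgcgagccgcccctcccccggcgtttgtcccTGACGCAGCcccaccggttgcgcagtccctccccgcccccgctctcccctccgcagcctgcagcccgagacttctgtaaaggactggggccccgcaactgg
LINC00662, chr19:27793891-27794190, minus strand: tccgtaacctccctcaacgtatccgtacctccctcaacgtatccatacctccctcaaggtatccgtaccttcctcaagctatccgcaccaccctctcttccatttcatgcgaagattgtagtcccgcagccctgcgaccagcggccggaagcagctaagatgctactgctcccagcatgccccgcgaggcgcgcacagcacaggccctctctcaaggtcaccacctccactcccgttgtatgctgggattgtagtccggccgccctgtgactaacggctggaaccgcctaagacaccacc
GABPB1-AS1, chr15:50353924-50354223, plus strand: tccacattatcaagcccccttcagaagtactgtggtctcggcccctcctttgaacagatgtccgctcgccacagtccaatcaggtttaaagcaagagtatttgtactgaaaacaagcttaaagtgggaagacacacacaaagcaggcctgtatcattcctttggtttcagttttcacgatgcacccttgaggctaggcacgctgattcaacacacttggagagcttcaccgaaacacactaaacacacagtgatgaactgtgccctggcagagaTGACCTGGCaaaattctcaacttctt
TMPO-AS1, chr12:98516177-98516476, minus strand: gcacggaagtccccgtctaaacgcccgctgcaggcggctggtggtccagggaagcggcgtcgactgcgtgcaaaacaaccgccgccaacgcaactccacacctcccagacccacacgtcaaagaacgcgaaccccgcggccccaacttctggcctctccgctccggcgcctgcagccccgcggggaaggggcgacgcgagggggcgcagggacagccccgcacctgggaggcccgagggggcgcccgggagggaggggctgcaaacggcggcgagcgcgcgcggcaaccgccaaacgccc
LINC01108, chr6:14285405-14285704, minus strand: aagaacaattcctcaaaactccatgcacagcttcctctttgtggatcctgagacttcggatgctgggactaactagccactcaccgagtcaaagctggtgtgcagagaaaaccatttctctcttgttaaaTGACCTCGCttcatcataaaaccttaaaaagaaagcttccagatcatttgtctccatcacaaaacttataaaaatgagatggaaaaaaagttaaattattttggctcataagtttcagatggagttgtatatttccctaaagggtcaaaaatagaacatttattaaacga
RefSeq promoters were matched for 79 of the 216 lncRNAs by Ensembl identifier, symbol or a synonym of a single gene, with the RefSeq start within 1 kb of the table's 5′ end and no coding gene accepted. Of these, 1.27% held TGATGNAA, 20.3% held TGACNNNGC and 10.1% held CACGTG on either strand, against 3.67, 13.6 and 7.43% of all 27305 promoters of the same length. Their median GC content was 61%, against 58.3% over all promoters, and their median ratio of observed to expected CpG was 0.77, against 0.58. These are counts of letters in 300-base windows, not of bound factors.

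Without asparagine, more of the 216 lncRNAs were higher than lower. In -Asn against +Asn, 128 (59.3%) were called higher and 47 (21.8%) lower by edgeR's quasi-likelihood test at an adjusted p under 0.05, and 41 were not called. Over all 17939 genes tested, 31.0% were called higher and 30.2% lower. Groups did not overlap, with -Asn higher, for 128 of the lncRNAs and, with -Asn lower, for 46 (33.4 and 32.1% of all genes). The median log2 fold change of the 216 was 0.42, against 0.04 over all genes, -0.16 over the 8493 protein-coding genes averaging 10 CPM or more, and 0.49 over the 2966 tested lncRNAs under the threshold. At 2-fold or more, 44 were called higher and 11 lower (14.6 and 8.26% of all genes). Among the 112 with a mean of at least 20 CPM, 80 were higher and 18 lower, and among the 104 between 10 and 20 CPM, 48 were higher and 29 lower. These counts describe genes chosen by their level over all 9 libraries. Of the 156 that reached 10 CPM in all 3 media, 86 were higher and 34 lower, with a median log2 fold change of 0.35. Without RNA -Asn replicate 1 the counts were 130 and 44. Scaled by library totals alone, which moves the median gene up by 0.21 on the log2 scale, they were 144 and 30, with 40.9 and 21.4% of all genes called under that scaling.

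Of all counts, the 216 lncRNAs took 0.632, 0.664 and 0.646% in the +Asn libraries, 1.19, 1.19 and 1.12% in the -Asn libraries, and 1.36, 1.34 and 1.36% in the -Asn+Fe libraries. Each medium's libraries lay apart from those of the others. The share differed by 0.520 percentage points between -Asn and +Asn and by 0.185 between -Asn+Fe and -Asn. These shares are RNA levels of genes chosen by RNA level, so they are a description. The 156 lncRNAs that reached 10 CPM in all 3 media took 0.580 to 0.612%, 1.03 to 1.09% and 1.23 to 1.254% in the same order of media. Without the 2 lncRNAs with the most counts the shares were 0.514 to 0.527%, 0.797 to 0.854% and 0.901 to 0.929% in the same order of media.

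**Figure D1:**
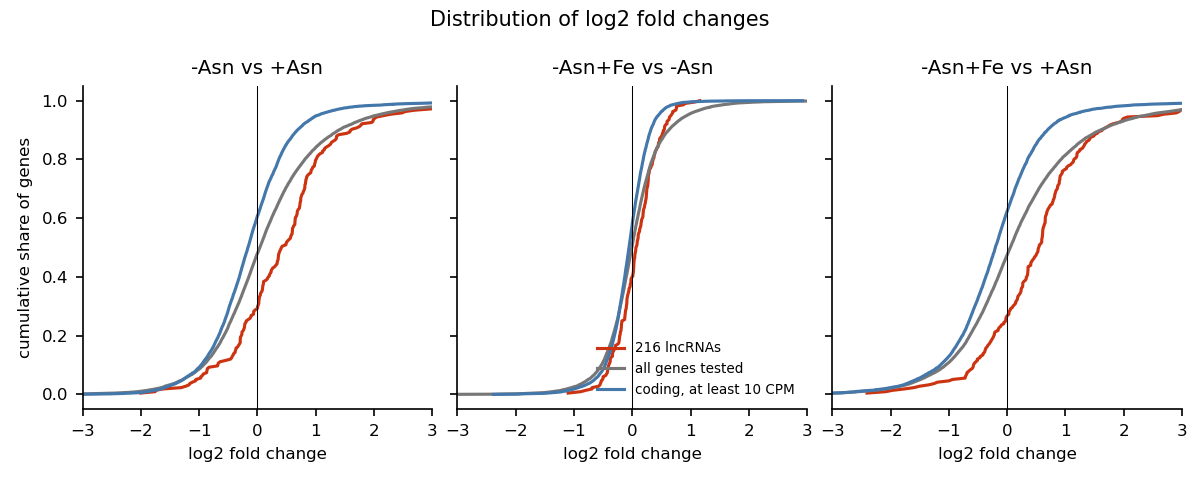
Cumulative share of genes (y axis) by log2 fold change from edgeR (x axis) in each of the 3 comparisons, for the 216 lncRNAs, all 17939 genes tested and the 8493 protein-coding genes of at least 10 CPM. The curve of the lncRNAs lies to the right of the others for -Asn vs +Asn, with medians of 0.42, 0.04 and -0.16. The same holds for -Asn+Fe vs +Asn, with 0.54, 0.05 and -0.20, whereas for -Asn+Fe vs -Asn the curves lie close, at 0.07, -0.01 and -0.05.

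The abundant, mostly nuclear lncRNAs on a list drawn up for the field (MALAT1, NEAT1, NORAD, TUG1, OIP5-AS1, CRNDE and KCNQ1OT1) were called higher in -Asn than in +Asn for 7 of 7, with a median log2 change of 0.68. Called higher were 31.0% of all genes, 59.3% of the 216 lncRNAs and 75.0% of the 32 with a mean of at least 50 CPM. The call of OIP5-AS1 was lost under most other settings. MALAT1 (ENSG00000251562.8, chr11:65497688-65506516, plus strand, hg38), an intergenic gene whose RNA stays in nuclear speckles, measured 905, 1189 and 1058 CPM in +Asn, 3312, 2596 and 2148 CPM in -Asn and 3183, 3320.2 and 3198 CPM in -Asn+Fe. All -Asn libraries lay above all +Asn libraries, with replicate 1 the highest of its medium, and the -Asn and -Asn+Fe libraries overlapped. The rise was 2.56-fold, a log2 change of 1.35 (SE 0.133, edgeR adjusted p = 3.57e-07). The log2 difference of 0.27 between -Asn+Fe and -Asn was not called (adjusted p = 0.135); without RNA -Asn replicate 1 it was 0.46 and called (adjusted p = 0.0062). Per kilobase of annotated exon, MALAT1 had the highest level of the set without asparagine, 304 CPM per kb in -Asn and 366 in -Asn+Fe, whereas in +Asn AC002454.1, which starts head to head with CDK6, was higher at 150.1 against 119 CPM per kb.

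NEAT1 (ENSG00000245532.9, chr11:65422774-65445540, plus strand), the scaffold of paraspeckles, which lies next to MALAT1 on chromosome 11, measured 100.4, 122 and 112 CPM in +Asn, 338, 341 and 288 CPM in -Asn and 441, 453 and 443 CPM in -Asn+Fe. The 3 media did not overlap, in that order. The log2 change was 1.53 (adjusted p = 1.25e-10) without asparagine and a further 0.47 (adjusted p = 0.000439) with iron. NORAD (ENSG00000260032.2, chr20:36045618-36051018, minus strand), a cytoplasmic RNA that binds Pumilio proteins, measured 384, 364 and 363 CPM in +Asn, 506, 624 and 655 CPM in -Asn and 835, 803 and 802 CPM in -Asn+Fe. It too rose at both steps without overlap, by log2 0.68 (adjusted p = 3.06e-06) and 0.45 (adjusted p = 0.000844). TUG1 rose by log2 0.36 (adjusted p = 0.00143) and CRNDE by 0.38 (adjusted p = 0.000725) in -Asn against +Asn, and neither was called in -Asn+Fe against -Asn, except TUG1 without -Asn replicate 3, at log2 0.26 (adjusted p = 0.0346).

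KCNQ1OT1 (ENSG00000269821.1, chr11:2608328-2699994, minus strand), the antisense transcript of the imprinted KCNQ1 domain, had the larger of its 2 steps with iron. Its levels were 8.54, 11.6 and 9.36 CPM in +Asn, 17.2, 17.3 and 17.3 CPM in -Asn and 37.0, 40.4 and 38.3 CPM in -Asn+Fe. The media did not overlap and the 3 -Asn libraries had an SD of 0.0579 CPM. The log2 change was 0.81 (adjusted p = 2.83e-06) at the first step and 1.16 (SE 0.0962, adjusted p = 1.6e-07) at the second. KCNQ1OT1 averaged just under 10 CPM in +Asn, so its first step is a description. OIP5-AS1 measured 379.7 ± 0.364, 428 ± 33.5 and 395 ± 16.02 CPM in +Asn, -Asn and -Asn+Fe (SD, n = 3). Its log2 change of 0.17 (adjusted p = 0.0461) in -Asn against +Asn lost its call under 14 of 18 other settings.

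**Figure D2:**
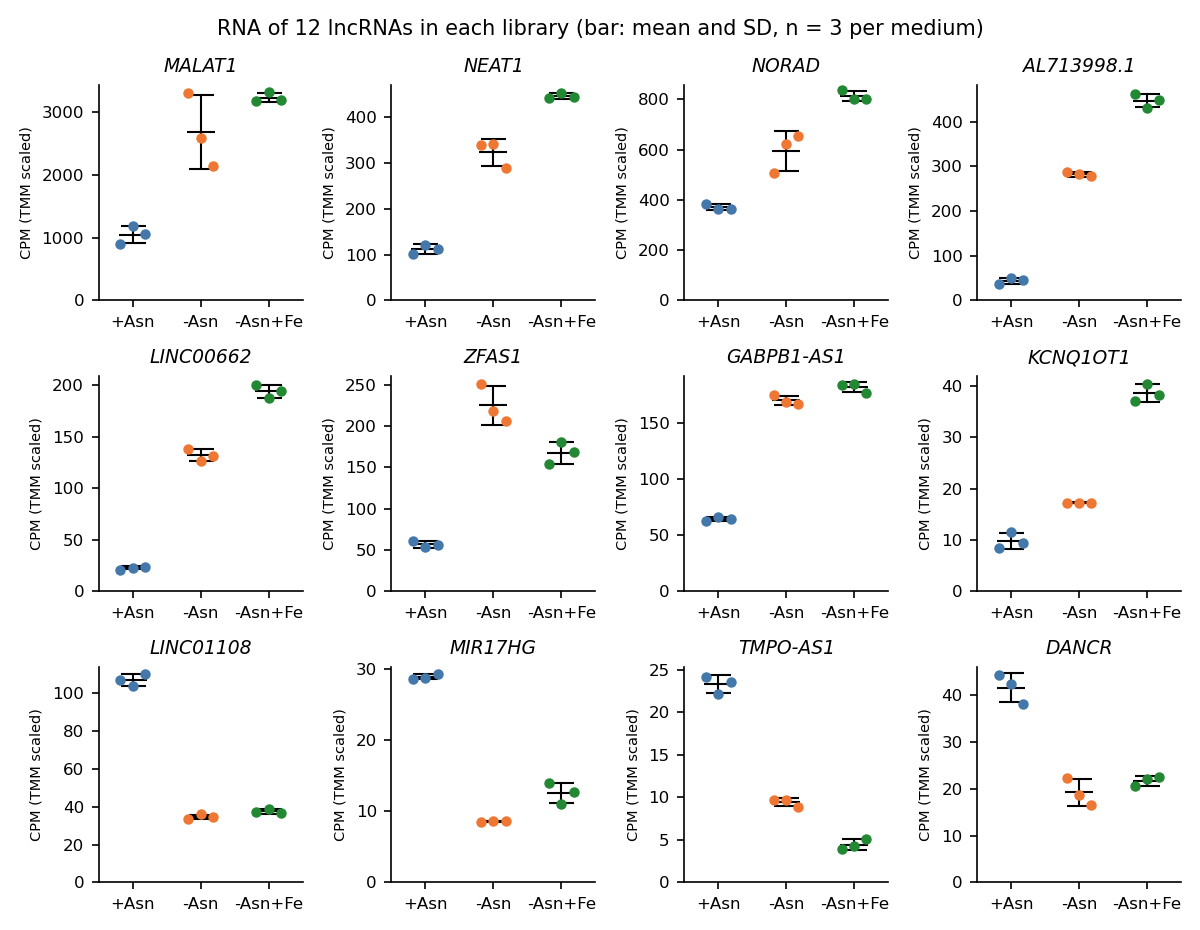
RNA level in CPM with TMM scaling (y axes, each from 0) of 12 of the lncRNAs in every library, by medium; points are libraries, bars the mean and SD of 3. MALAT1, NEAT1, NORAD, AL713998.1, LINC00662, ZFAS1, GABPB1-AS1 and KCNQ1OT1 lie higher in all -Asn libraries than in all +Asn libraries, and LINC01108, MIR17HG, TMPO-AS1 and DANCR lower.

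Several lncRNAs with a large rise without asparagine averaged under 10 CPM in complete medium. AL035681.1, AC008632.1, AC016573.1, LINC02207, LINC00237, VLDLR-AS1 and NBR2 are in the set only through the media in which they were high, so that they had to differ, and their values are a description. AL035681.1 (ENSG00000235513.2, chr22:41207592-41228500, minus strand), antisense to and overlapping L3MBTL2, measured 0.375, 0.317 and 0.420 CPM in +Asn, 36.0, 30.1 and 29.0 CPM in -Asn and 42.1, 40.8 and 37.9 CPM in -Asn+Fe. All 6 libraries without asparagine were far above the 3 with it. The rise was 84.6-fold, a log2 change of 6.40 (SE 0.153, edgeR adjusted p = 5.02e-15). AC008632.1 (ENSG00000253141.2, chr5:173463484-173484584, plus strand) went from 0.927 ± 0.124 to 27.8 ± 1.24 and 33.3 ± 0.828 CPM, and AC016573.1 (ENSG00000253968.2, chr5:173383941-173451591, plus strand) from 0.652 ± 0.134 to 15.6 ± 0.837 and 19.9 ± 1.01 CPM. The log2 changes in -Asn against +Asn were 4.90 (adjusted p = 5.02e-15) and 4.58 (adjusted p = 1.28e-13). These are neighbouring intergenic genes on the same strand of chromosome 5, and with iron both were called a little higher again, by 0.26 (adjusted p = 0.0198) and 0.35 (adjusted p = 0.0108). The call of AC008632.1 was lost without -Asn replicate 3, at log2 0.24 (adjusted p = 0.0591), and without -Asn+Fe replicate 3, at log2 0.25 (adjusted p = 0.0775), and that of AC016573.1 without -Asn+Fe replicate 1, at log2 0.33 (adjusted p = 0.0508).

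LINC02207 rose 11.1-fold, from 3.45 ± 0.155 to 38.2 ± 3.29 CPM, LINC00237 9.07-fold, from 3.17 ± 0.697 to 28.9 ± 3.02 CPM, VLDLR-AS1 8.16-fold, from 2.62 ± 0.306 to 21.4 ± 0.862 CPM, and NBR2 7.95-fold, from 7.27 ± 0.155 to 57.8 ± 5.13 CPM (SD, n = 3 each). For these 4 the edgeR adjusted p was 6.79e-14, 7.6e-12, 5.41e-13 and 5.6e-14. No library of one medium reached those of the other in any of the 4. With iron, LINC00237 fell by 0.50 on the log2 scale (adjusted p = 0.00382), and the other 3 were not called, with log2 differences of 0.18, 0.02 and -0.04.

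AL713998.1 (ENSG00000227706.4, chr6:67878316-67889339, minus strand), an intergenic gene of chromosome 6, combined a high level with a large change. It measured 36.4, 49.2 and 45.2 CPM in +Asn, 288, 282 and 277 CPM in -Asn and 461, 431 and 448 CPM in -Asn+Fe. The 3 media did not overlap, and the spread within each was small beside the steps. The log2 change was 2.696 (adjusted p = 4.96e-13) without asparagine and a further 0.66 (adjusted p = 2.67e-05) with iron. LINC00662 (ENSG00000261824.7, chr19:27681072-27794005, minus strand) went from 21.2, 23.2 and 23.95 CPM in +Asn to 138, 127 and 131 CPM in -Asn and 200.1, 187 and 195 CPM in -Asn+Fe. It rose at both steps, by log2 2.54 (adjusted p = 5.6e-14) and 0.56 (adjusted p = 1.25e-05). AC006504.1, a single-exon gene on the same strand within the span of LINC00662, changed alongside it by 2.28 (adjusted p = 9.15e-12) and 0.69 (adjusted p = 1.92e-05), whereas AC006504.5, which starts on the other strand at the same H3K4me3 region, was not called (log2 -0.22, adjusted p = 0.0665). It was called without +Asn replicate 1, at log2 -0.28 (adjusted p = 0.0456), without -Asn replicate 3, at log2 -0.31 (adjusted p = 0.0185), and without -Asn+Fe replicate 2, at log2 -0.24 (adjusted p = 0.0460). AC006504.1 averaged under 10 CPM in +Asn and is in the set through the other media, so its first step is a description.

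Of the 3 hosts of small nucleolar RNAs with names outside the excluded families, 2 were higher and 1 lower in -Asn than in +Asn. Called higher and lower were 59.3 and 21.8% of the 216 lncRNAs and 31.0 and 30.2% of all genes. ZFAS1 (ENSG00000177410.13, chr20:49278178-49299600, plus strand), whose introns hold C/D-box RNAs, measured 60.7, 53.2 and 56.7 CPM in +Asn, 251, 219 and 206 CPM in -Asn and 154, 181 and 169 CPM in -Asn+Fe. The media did not overlap, and -Asn was the highest. The rise of 3.96-fold (log2 1.99 (adjusted p = 9.03e-12)) was followed by a fall with iron of log2 -0.42 (adjusted p = 0.00120). EPB41L4A-AS1 behaved likewise, at 47.5 ± 1.04, 111 ± 20.1 and 83.8 ± 11.0 CPM, with log2 changes of 1.23 (adjusted p = 1.8e-07) and -0.41 (adjusted p = 0.0118), although its -Asn and -Asn+Fe libraries overlapped. Its call with iron was lost without -Asn+Fe replicate 1, at log2 -0.34 (adjusted p = 0.0649), and without -Asn+Fe replicate 3, at log2 -0.36 (adjusted p = 0.0515). DANCR, which also holds a small nucleolar RNA, went the other way, from 44.3, 42.4 and 38.2 CPM in +Asn to 22.4, 18.7 and 16.6 CPM in -Asn and 20.5, 22.1 and 22.5 CPM in -Asn+Fe. It fell 2.17-fold at the first step (log2 -1.12 (adjusted p = 5.88e-08)) and was not called at the second, where leaving out -Asn replicate 1 gave a called rise of log2 0.31 (adjusted p = 0.00997).

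Among 10 listed lncRNAs tied to oxidative stress, amino acid supply or oxygen, 2 were in the set and both rose: GABPB1-AS1, an RNA known from oxidative stress that starts head to head with GABPB1, and GABPB1-IT1, which lies on the strand of GABPB1. Called higher were 59.3% of the 216 lncRNAs and 31.0% of all genes. GABPB1-AS1 (ENSG00000244879.8, chr15:50354959-50372202, plus strand) measured 62.6, 66.1 and 64.7 CPM in +Asn, 174, 169 and 167 CPM in -Asn and 184, 184 and 176 CPM in -Asn+Fe. The rise in -Asn against +Asn was 2.64-fold, a log2 change of 1.40 (SE 0.0633, edgeR adjusted p = 1.15e-11), and -Asn+Fe against -Asn was not called (adjusted p = 0.262). GABPB1-IT1 rose by log2 0.52 (adjusted p = 0.000125). Of 9 listed lncRNAs of the p53 and DNA damage response, NEAT1 alone was in the set.

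Of 66 listed microRNA hosts, 6 were in the set: PVT1, MIR99AHG and MIR3142HG were higher and DLEU2, MIR17HG and MIR600HG lower in -Asn than in +Asn. The shares called higher and lower were 59.3 and 21.8% of the 216 lncRNAs and 31.0 and 30.2% of all genes. MIR17HG (ENSG00000215417.13, chr13:91347820-91354579, plus strand), the host of the 6 microRNA genes named above, measured 28.6, 28.8 and 29.3 CPM in +Asn, 8.49, 8.60 and 8.67 CPM in -Asn and 14.0, 11.0 and 12.7 CPM in -Asn+Fe. The +Asn libraries were the highest and the -Asn libraries the lowest, with no overlap of the media. The fall was 3.37-fold (log2 -1.75 (adjusted p = 1.08e-10)), and with iron the level rose by log2 0.55 (adjusted p = 0.000414), to below that of +Asn. MIR17HG averaged under 10 CPM in -Asn and is in the set through the other media, so these steps are a description. DLEU2 (ENSG00000231607.12), the host of miR-15a and miR-16-1, fell from 58.4 ± 6.01 to 36.4 ± 2.32 CPM (log2 -0.68 (adjusted p = 7.47e-06)) and was not called with iron.

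MIR99AHG (ENSG00000215386.13, chr21:15928296-16645467, plus strand), the long host of miR-99a, let-7c and miR-125b-2, rose 3.97-fold without asparagine and 1.88-fold again with iron. Its libraries measured 3.18, 4.32 and 4.20 CPM in +Asn, 12.04, 16.6 and 17.6 CPM in -Asn and 30.4, 26.6 and 30.1 CPM in -Asn+Fe. The media stood in that order without overlap, with -Asn replicate 1 the lowest of its medium. The log2 changes were 1.99 (adjusted p = 5.61e-09) and 0.91 (adjusted p = 5.64e-05). MIR99AHG averaged under 10 CPM in +Asn and is in the set through the other media, so its rise is a description. MIR3142HG, the host of miR-146a, rose by 0.39 (adjusted p = 0.00114) and 0.55 (adjusted p = 0.000153). AL158152.1, which holds let-7 genes and is not on the list, was not called without asparagine, at 0.03 (adjusted p = 0.793), and rose with iron by 0.32 (adjusted p = 0.0151). PVT1 (ENSG00000249859.11) measured 26.7 ± 1.68, 39.0 ± 0.876 and 65.4 ± 2.89 CPM and rose by 0.54 (adjusted p = 6.02e-06) and 0.75 (adjusted p = 8.5e-07). With iron, 4 of the 6 hosts rose (PVT1, MIR17HG, MIR99AHG and MIR3142HG) and none fell, where 28.2% of the 216 and 14.0% of all genes were called higher. MIR600HG was lower in -Asn+Fe than in +Asn by the TMM scaling (log2 -0.25) and at log2 0.0010 with library totals alone.

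The list of 16 haematopoietic and HOXA-locus lncRNAs gave 4 genes of the set, of which 1 was higher and 2 lower in -Asn than in +Asn. Among the 216 lncRNAs 59.3% were called higher and 21.8% lower, and among all genes 31.0 and 30.2%. LINC00426 rose from 37.2 ± 1.81 to 70.2 ± 1.56 CPM (log2 0.92 (adjusted p = 3.68e-09)) and to 84.4 ± 1.45 CPM with iron (log2 0.27 (adjusted p = 0.00515)). LEF1-AS1, antisense to LEF1, was not called at the first step and fell with iron (log2 -0.43 (adjusted p = 0.00957); without -Asn+Fe replicate 3 log2 -0.34 (adjusted p = 0.0612), not called). The list of MYC neighbours and targets gave PVT1 and DANCR, and that of imprinted lncRNAs KCNQ1OT1, all with the values above.

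Of the 11 lncRNAs called at least 2-fold lower in -Asn than in +Asn, LINC01108 (ENSG00000226673.2, chr6:14280127-14285454, minus strand), an intergenic gene of chromosome 6, had the highest CPM in complete medium. It measured 107, 104 and 110.1 CPM in +Asn, 33.7, 35.9 and 34.4 CPM in -Asn and 37.4, 39.0 and 36.4 CPM in -Asn+Fe. All 6 libraries without asparagine lay far below the 3 with it, and iron made no called difference (log2 0.12, adjusted p = 0.210). The fall was 3.08-fold, a log2 change of -1.62 (SE 0.0671, edgeR adjusted p = 3.84e-12). TMPO-AS1 (ENSG00000257167.2, chr12:98512973-98516422, minus strand), which starts head to head with TMPO, a gene of the nuclear lamina, fell at both steps. Its libraries measured 24.2, 22.1 and 23.6 CPM in +Asn, 9.74, 9.70 and 8.85 CPM in -Asn and 3.88, 4.25 and 5.11 CPM in -Asn+Fe. The media did not overlap, and the log2 changes were -1.31 (adjusted p = 1.23e-08) and -1.1004 (adjusted p = 2.31e-06). TMPO-AS1 was the 1 lncRNA of the set called at least 2-fold lower with iron. It averaged under 10 CPM in -Asn and -Asn+Fe and is in the set through +Asn, so its falls are a description.

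AC022150.4 fell from 22.0 ± 0.1004 to 5.46 ± 2.07 CPM (log2 -2.001 (adjusted p = 3.4e-07)), with -Asn replicate 1 the lowest library at 3.07 CPM. AC006329.1 fell from 21.9 ± 1.31 to 6.504 ± 0.150 CPM (log2 -1.75 (adjusted p = 5.36e-09)), AL161891.1 from 24.3 ± 0.850 to 10.3 ± 1.96 CPM (log2 -1.23 (adjusted p = 1.19e-07)), and LINC01128 from 32.2 ± 1.70 to 14.4 ± 1.91 CPM (log2 -1.16 (adjusted p = 2.04e-08)). All 4 had every -Asn library below every +Asn library. AC022150.4 and AC006329.1 averaged under 10 CPM in -Asn, so their falls are a description. AC022150.4 and AL161891.1 lie in the span of a coding gene on its strand, and AC006329.1 on the opposite strand, so reads of those genes may be counted in part. C12orf77 and AC069277.1 were lower as well, by log2 -1.06 (adjusted p = 1.27e-09) and -1.05 (adjusted p = 2.28e-07). AC069277.1 too averaged under 10 CPM in -Asn, so its fall is a description.

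**Figure D3:**
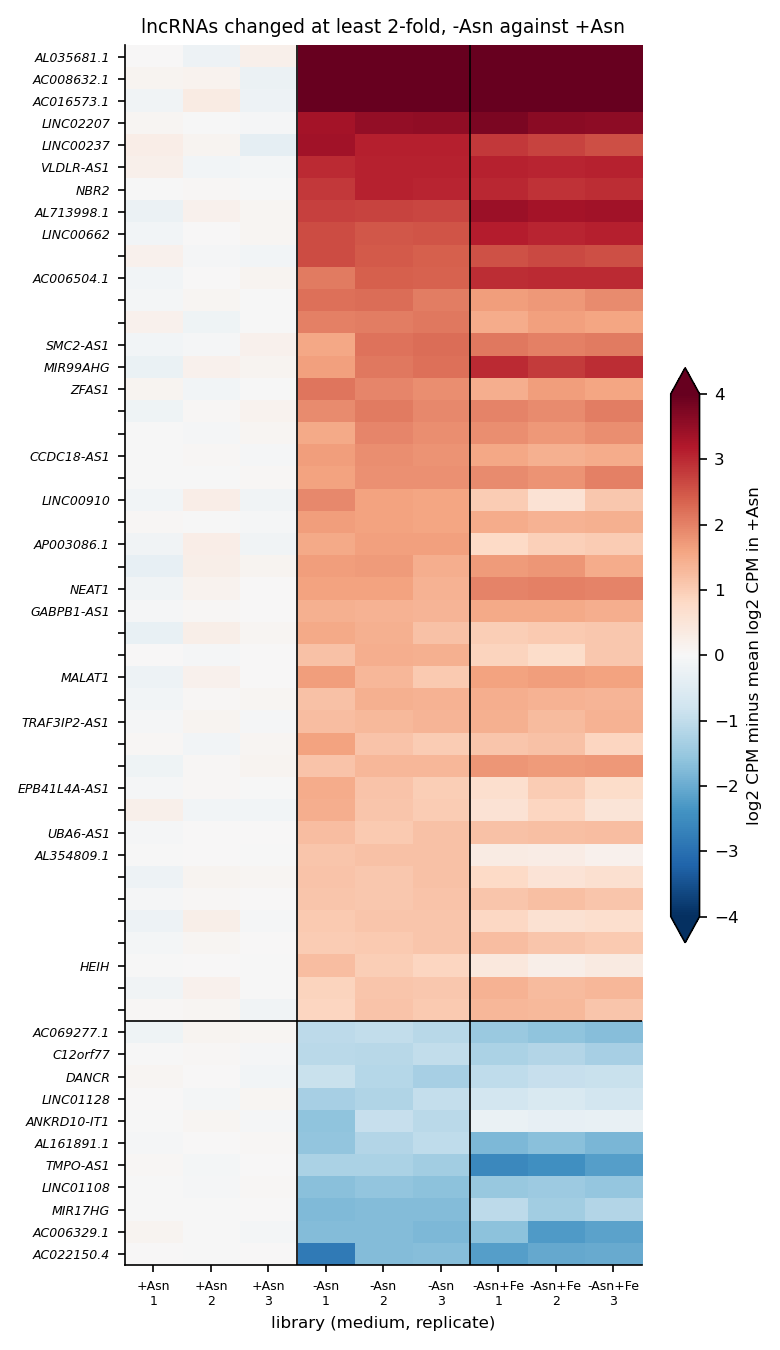
Heat map of the 55 lncRNAs called at least 2-fold higher (44, upper block) or lower (11, lower block) in -Asn than in +Asn; columns are libraries, and colour is log2 CPM minus the gene's mean log2 CPM in +Asn, with the scale limited to 4 either way, and rows are labelled for lncRNAs named in the text. Within each block the 3 -Asn columns share the sign of the change, and the -Asn+Fe columns mostly resemble them.

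Supply of iron and hinokitiol changed fewer of the lncRNAs. Between -Asn+Fe and -Asn, 61 of the 216 were called higher with iron and 36 lower, and 119 were not called, with 14.0% of all genes called higher and 16.8% lower. Groups did not overlap for 77 with -Asn+Fe higher and 46 with -Asn+Fe lower (20.5 and 22.7% of all genes). The median log2 fold change of the 216 was 0.07, against -0.01 over all genes. At 2-fold or more, 2 were higher and 1 lower (3.33 and 1.95% of all genes), namely KCNQ1OT1, AC009404.1 and TMPO-AS1. Scaled by library totals alone, 67 were higher and 31 lower, with 16.9 and 13.9% of all genes. The -Asn libraries serve both as the lower end of this comparison and as the upper end of the first, so the values of the 2 comparisons are not independent. Of the 128 lncRNAs called higher without asparagine, 31 were called higher again with iron, 25 lower and 72 not, and of the 47 called lower, 6 were lower again, 16 higher and 25 not. Of all 216, 28.2% were called higher with iron and 16.7% lower. The split by the first call was not made over all genes and is a description.

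AC009404.1 (ENSG00000236255.2, chr2:117833937-117841658, plus strand), an intergenic gene beside DDX18, measured 10.5, 10.3 and 10.2 CPM in +Asn, 16.4, 14.6 and 16.5 CPM in -Asn and 30.5, 34.6 and 34.5 CPM in -Asn+Fe. The media did not overlap, and the step with iron was the larger, 2.10-fold (a log2 change of 1.07 (SE 0.0865, edgeR adjusted p = 1.23e-07)). THUMPD3-AS1 went from 45.2 ± 1.26 to 76.5 ± 1.13 CPM with iron (log2 0.76 (adjusted p = 1.82e-07)), and AC007566.1 from 14.4 ± 0.768 to 24.4 ± 4.90 CPM (log2 0.76 (adjusted p = 0.000167)). LINC00641 was not called without asparagine (log2 -0.12, adjusted p = 0.275), and rose with iron from 30.9, 39.1 and 40.5 to 62.3, 60.7 and 63.7 CPM (log2 0.76 (adjusted p = 1.67e-05)). ANKRD10-IT1, within the span of ANKRD10 on its strand, fell and came back: it measured 24.6, 25.8 and 23.8 CPM in +Asn, 8.03, 13.1 and 11.7 CPM in -Asn and 20.6, 19.7 and 19.997 CPM in -Asn+Fe, with log2 changes of -1.17 (adjusted p = 5.97e-07) and 0.88 (adjusted p = 8.39e-05).

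The falls with iron were largest, TMPO-AS1 apart, in lncRNAs that had risen without asparagine. Both steps share the -Asn libraries, so a high -Asn value enters both, and this order is a description. AL354809.1 (ENSG00000273507.5, chr13:39053019-39223238, plus strand), antisense to LHFPL6, measured 15.4, 15.7 and 15.2 CPM in +Asn, 33.4, 34.5 and 34.8 CPM in -Asn and 19.3, 18.98 and 17.4 CPM in -Asn+Fe. Its -Asn libraries stood above both other media, and the log2 change with iron was -0.88 (adjusted p = 2.66e-07). LINC00910 went from 19.9 ± 2.63 to 11.4 ± 2.003 CPM (log2 -0.80 (adjusted p = 0.000333)), HEIH from 39.4 ± 5.35 to 24.4 ± 1.64 CPM (log2 -0.69 (adjusted p = 3.67e-05)) and AP003086.1 from 18.8 ± 1.06 to 11.7 ± 0.914 CPM (log2 -0.69 (adjusted p = 0.000186)). All 3 remained above +Asn, at 6.12 ± 0.957, 19.3 ± 0.198 and 6.25 ± 0.993 CPM. LINC00910 and AP003086.1 averaged under 10 CPM in +Asn, so their levels above it are a description. TSPOAP1-AS1 fell by 0.58 (adjusted p = 1.04e-05) with iron and was called below +Asn (log2 -0.21), a difference whose sign turned under 2 other scalings, and whose call was lost without +Asn replicate 2 (log2 -0.18, adjusted p = 0.0649), -Asn+Fe replicate 1 (log2 -0.20, adjusted p = 0.0510) or -Asn+Fe replicate 2 (log2 -0.17, adjusted p = 0.0717). AL139020.1, antisense to the lymphoid oncogene TCL1A, and AC069277.1 fell at both steps, with log2 changes with iron of -0.56 (adjusted p = 5.36e-05) and -0.55 (adjusted p = 0.00169). AC069277.1 averaged under 10 CPM in -Asn and -Asn+Fe and is in the set through +Asn, so its falls are a description.

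Between -Asn+Fe and +Asn, 138 of the 216 lncRNAs were called higher and 41 lower, with 32.9% of all genes called higher and 31.9% lower. Groups did not overlap for 146 with -Asn+Fe higher and 44 with -Asn+Fe lower (35.9 and 34.6% of all genes). The median log2 fold change was 0.54, against 0.05 over all genes and -0.20 over the protein-coding genes of at least 10 CPM. At 2-fold or more, 51 were higher and 9 lower (17.3 and 10.5% of all genes). Scaled by totals alone, 161 were higher and 26 lower, with 45.0 and 22.2% of all genes. By mean level, the order +Asn, -Asn, -Asn+Fe from low to high held for 91 lncRNAs, and +Asn, -Asn+Fe, -Asn for 52. These orders were not counted over all genes and are a description of genes chosen by level. ANKRD10-IT1 was called lower than +Asn (log2 -0.30 (adjusted p = 0.0472)), and lost that call under 12 of 18 other settings. ZNF710-AS1, antisense to ZNF710, was lower, at log2 -1.35 (adjusted p = 3.19e-08). Its level in -Asn+Fe lay near the threshold of 10 CPM, so this fall is a description.

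By position, 76 of the lncRNAs lay clear of coding genes, 66 lay opposite to and overlapping a coding gene, 54 started head to head with one within 1 kb, and 20 overlapped one on its own strand. In -Asn against +Asn, 43 and 16 of the intergenic, 40 and 17 of the antisense, 34 and 9 of the head-to-head and 11 and 5 of the same-strand lncRNAs were called higher and lower. The strand setting of the counting is not given in the sources used here. Where it was not used, reads of a gene and of an antisense partner cannot be told apart in the shared exons, and the overlapping genes are less certain. Of the 118 lncRNAs that shared under 5% of their exonic bases with any other gene, 68 were higher and 27 lower (57.6 and 22.9%). Of the 37 that overlapped no annotated gene, 21 were higher and 7 lower (56.8 and 18.9%).

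The 54 head-to-head lncRNAs formed 56 pairs with coding genes, and in 53 the coding gene was tested. In -Asn against +Asn both partners were called in 31 pairs, in the same direction in 21 (14 higher, 7 lower) and in opposite directions in 10, all of which had the lncRNA higher and the coding gene lower. Of the 216 lncRNAs, 59.3% were called higher and 21.8% lower. For protein-coding genes averaging 10 CPM or more the shares were 27.5 and 47.2%. The lncRNA's log2 change was above its partner's in 42 of 53 pairs, with medians of 0.60 and -0.15. Across pairs, which share libraries, Pearson's r was 0.43 and Spearman's rho 0.40. GABPB1-AS1 rose by 1.40 while GABPB1, which encodes a subunit of the transcription factor GABP, changed by -0.71 (adjusted p = 6.65e-08) from the same H3K4me3 region. UBA6-AS1 rose by 1.16 (adjusted p = 2.69e-09) against -0.71 (adjusted p = 0.000146) for UBA6, and STARD7-AS1 rose by 0.98 (adjusted p = 1.03e-07) against -0.82 (adjusted p = 1.5e-08) for STARD7. The spans of UBA6-AS1 and UBA6 do not overlap.

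Pairs that moved together included TMPO-AS1 and TMPO, at -1.31 and -1.40 (adjusted p = 4.52e-10). RAB30-DT rose by 0.99 (adjusted p = 5.87e-08) beside RAB30, which encodes a Golgi GTPase, at 3.29 (adjusted p = 7.11e-13). TRAF3IP2-AS1 rose by 1.29 (adjusted p = 1.31e-09) beside REV3L, the catalytic subunit of a translesion polymerase, at 1.62 (adjusted p = 8.56e-08). CCDC18-AS1 rose by 1.78 (adjusted p = 1.04e-11), whereas DR1, at whose start it begins, changed by -0.19 (adjusted p = 0.0354). With iron, both partners were called in 7 pairs, 4 in the same and 3 in opposite directions. ZFAS1 at -0.42 and ZNFX1 at 0.35 (adjusted p = 0.000390) were of the latter, as were AC002454.1 at -0.31 (adjusted p = 0.00857) and CDK6, a cell cycle kinase, at 0.40 (adjusted p = 0.0477), and TMCC1-AS1 at 0.42 (adjusted p = 0.00209) and TMCC1 at -0.39 (adjusted p = 0.00718). AC002454.1 was not called without -Asn+Fe replicate 1, at log2 -0.26 (adjusted p = 0.0550). Relative to +Asn, 19 pairs moved together in -Asn+Fe and 11 apart, again with the lncRNA higher in all 11. Among the 11 pairs was TMEM147-AS1 at 0.59 (adjusted p = 7.1e-05) with TMEM147 at -1.29 (adjusted p = 5.85e-09).

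**Figure D4:**
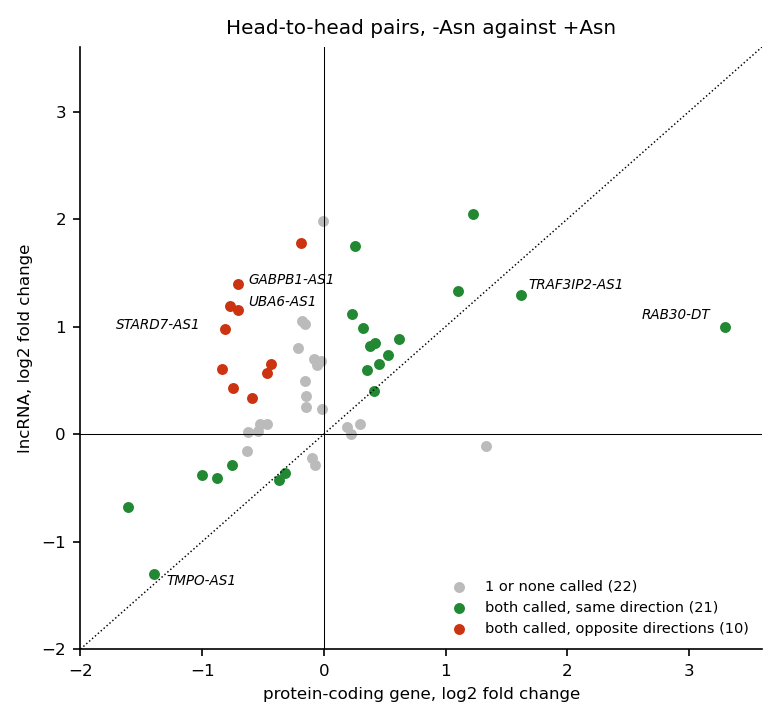
Log2 fold change in -Asn against +Asn of the lncRNA (y axis) and of its head-to-head coding partner (x axis) in 53 pairs; the dotted line marks equal change, green points pairs called in the same direction (21), red points pairs called in opposite directions (10), grey points the rest (22). The red points lie in the upper left corner, and 42 of 53 points lie above the dotted line.

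An H3K4me3 region overlapped the 1 kb on either side of the 5′ end of 145 of the 216 lncRNAs, and for 140 it was called in all 9 libraries, in 136 distinct regions. The mark was present at 53 of 54 head-to-head, 44 of 66 antisense, 41 of 76 intergenic and 7 of 20 same-strand lncRNAs. At 61 of the 145, a coding gene also starts in the window, and the region cannot be assigned to either gene. The files give where peaks were called in each library and no read counts, so width, the bases a library's peaks cover within a region, is the one measure. The median width at the lncRNAs was 2628, 2821 and 2659 bp in +Asn, -Asn and -Asn+Fe, against 1653, 1757 and 1729 bp over all 13883 regions called in all 9 libraries.

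In -Asn against +Asn, 23 of the 136 regions were called wider and 7 narrower (limma on log2 width, adjusted p under 0.05), with 14.6% of all regions called wider and 1.45% narrower. With each library centred on its median width, 11 were wider and 21 narrower, against 8.84 and 7.48% of all regions, so the direction of this count rests on the scaling. Wider regions numbered 13 without H3K4me3 -Asn replicate 2, which had the most regions (17448) and the largest median width (1840 bp), and 15 without -Asn replicate 3. Without that replicate 3, narrower regions numbered 4. Between -Asn+Fe and -Asn no region was called in either direction, with 0.0% of all regions called. Before adjustment 8 of the 136 had a limma p under 0.05, 3 wider and 5 narrower, as had 7.51% of all regions, and the smallest adjusted p was 0.330. Of the same regions, in -Asn+Fe against +Asn 17 were wider and 7 narrower (11.7 and 1.92% of all regions), and 11 and 17 after centring (9.05 and 7.58%). That wider count was 11 without +Asn replicate 3 and 10 without -Asn+Fe replicate 1. The narrower count was 4 without +Asn replicate 1, 2 or 3, and 3 without -Asn+Fe replicate 2 or 3.

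The mark widened with the RNA most at AL713998.1. Its region (chr6:67887563-67889466) covered 225, 262 and 471 bp in +Asn, 1143, 1596 and 1349 bp in -Asn and 1740, 1570 and 1601 bp in -Asn+Fe. All libraries without asparagine were wider than all with it, a log2 ratio of 2.16 (SE 0.236, limma adjusted p = 0.000353) in -Asn against +Asn. The region at NEAT1 (chr11:65416489-65427615) covered 6988, 7069 and 6712 bp, then 8940, 10582 and 10766 bp and 10413, 10460 and 10579 bp, a log2 ratio of 0.54 (SE 0.0645, limma adjusted p = 0.000569). That shared by LINC00662 and AC006504.5 (chr19:27791155-27795149) covered 2479, 2661 and 2449 bp, then 3465, 3867 and 3702 bp and 3892, 3942 and 3971 bp, a ratio of 0.54 (SE 0.0476, limma adjusted p = 8.46e-05). LINC00426 and MALAT1 had ratios of 0.68 (SE 0.150, limma adjusted p = 0.0143) and 0.16 (SE 0.0397, limma adjusted p = 0.0248). The median ratio over all regions was 0.09.

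The region at LINC01108 (chr6:14280260-14286685) was narrower without asparagine, at 6312, 6143 and 6151 bp in +Asn against 4955, 5529 and 4709 bp in -Asn, a log2 ratio of -0.30 (SE 0.0541, limma adjusted p = 0.00656). Those at DANCR, AL391704.1 and TMPO-AS1 were narrower, with ratios of -0.38 (SE 0.0779, limma adjusted p = 0.0112), -0.40 (SE 0.0966, limma adjusted p = 0.0201) and -0.31 (SE 0.0871, limma adjusted p = 0.0396). AL391704.1, an intergenic gene of chromosome 10, had less RNA as well, at 67.1 ± 2.56 against 37.8 ± 2.59 CPM (log2 -0.83 (adjusted p = 3.45e-08)). The 2 lncRNAs with a narrower region and higher RNA were ZFAS1, whose region had a ratio of -0.23 (SE 0.0541, limma adjusted p = 0.0175), and LINC01226, at -0.71 (SE 0.145, limma adjusted p = 0.0107) with an RNA change of 0.20 (adjusted p = 0.0325) whose call was lost under 10 of 18 other settings. DLEU2 was the 1 with less RNA and a wider region, 0.15 (SE 0.0395, limma adjusted p = 0.0290), against a median of 0.09 over all regions.

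In all, of 88 lncRNAs with higher RNA and a testable region, 20 had a wider and 2 a narrower region, of 26 with lower RNA 1 and 5, and of 26 not called 3 and 0. Over all regions, 14.6% were called wider and 1.45% narrower. These counts use widths without centring, which turned the direction of the region counts above, and the split by RNA was not made after centring. Over the 140 lncRNAs, RNA and width changes had a Pearson's r of 0.50 and a Spearman's rho of 0.55 in -Asn against +Asn, given as a description of points that share libraries and, for some, regions. At 2 lncRNAs, AP003086.1 and AC010186.3, peaks were called in none of the 3 +Asn libraries and in all 3 -Asn+Fe libraries, as at 3.2% of all 19279 regions. At AP003086.1 they covered 0, 335 and 315 bp in -Asn and 596, 268 and 269 bp in -Asn+Fe. At AC010186.3 they covered 0, 301 and 0 bp and 261, 600 and 665 bp.

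**Figure D5:**
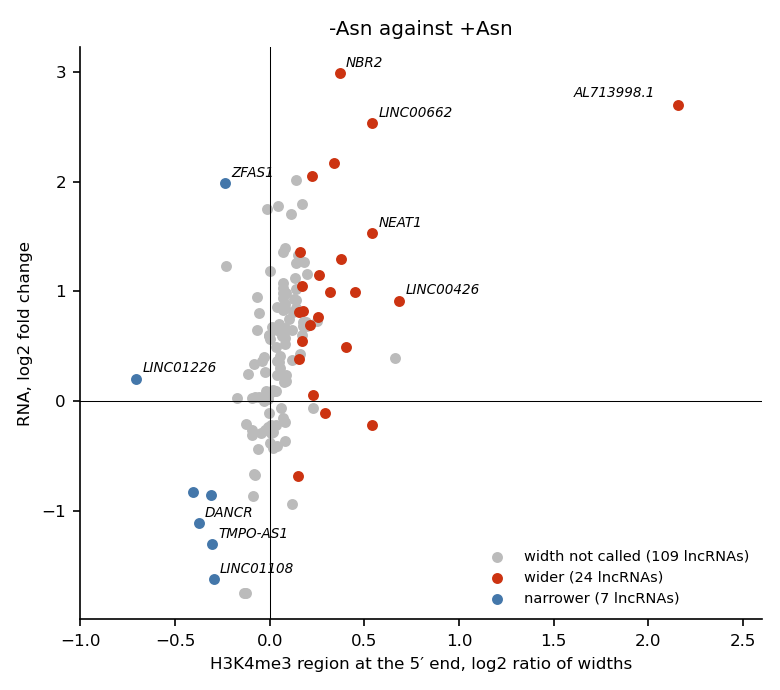
Log2 fold change of RNA (y axis) against log2 ratio of H3K4me3 width at the 5′ end (x axis) in -Asn against +Asn, for the 140 lncRNAs with a region called in all 9 libraries; colour shows whether the region was called wider, narrower or neither. AL713998.1 stands farthest right (2.16), and most points with a wider region lie above 0 on the RNA axis (20 of 24 called higher, against 88 of all 140). Widths are without centring.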

How the data were processed

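RNA of the 9 RNA libraries was tested on the authors' raw gene counts. The submitters' processing notes list, with no roles, bcl2fastq, STAR 2.7.2a, Subread 1.6.5, featureCounts, MACS2 2.2.7.1, Bowtie2 2.4.4, Picard 2.18.26 and hg38. The sources used here do not give the strand setting of counting or the handling of multi-mapping reads. For H3K4me3 the authors deposited peak positions by library, a measure of another kind, joined into 19279 regions. The width in bp covered by a library's peaks was computed from them and tested as log2 width. Peak lines hold 13 fields under 12 names; the 4th repeats the region, the last 9 were read as the libraries, and "untreated" as +Asn. Input libraries were not analysed here.

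Genes were fitted together over 9 libraries with edgeR 4.0.16 (TMM, filterByExpr, robust quasi-likelihood fit, 6 residual degrees of freedom, common coefficient of variation 0.0871), and widths with limma 3.58.1 with a trend, in R 4.3.3, with Benjamini-Hochberg adjustment over 17939 genes or 13883 regions. Scripts were tested on simulated data. Other settings were library totals, upper-quartile and DESeq2 1.42.0 scaling and test, stricter and no filters, a test against 1.2-fold, each library left out, and for widths centring and other windows (500 bp, 2 kb). Same-numbered libraries did not vary together (correlations -0.0806 to 0.0721 for RNA and -0.211 to 0.0933 for widths), so they were not paired. Tables and figures used Python 3.11.15 with pandas 2.3.3, numpy 2.4.6, scipy 1.17.1 and matplotlib 3.10.9.

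The members, gene lists and tests were chosen with earlier results of these data known. Named lncRNAs are the 8 with the largest called change per direction and comparison, the highest per kilobase, those at the threshold, those on the role lists, the 3 regions with the largest width change per direction, and the pairs with the largest difference; results on some of these are not reported here. AC010186.3, AL158152.1, UBA6-AS1, STARD7-AS1, RAB30-DT, TRAF3IP2-AS1 and coding neighbours other than head-to-head partners were named after their values were seen.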

Additional observations from a re-analysis of the deposited data

How the results depend on the processing

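For 63 lncRNAs chosen by the naming rule, 3 comparisons and 18 other settings gave 3402 values, of which 3267 kept direction and side of the threshold, 95 lost their call, 35 gained one and 5 turned sign. Those 5, all in -Asn+Fe against +Asn, were AC002454.1 (0.034), TSPOAP1-AS1 (0.049), MIR600HG (0.0010) and TMCC1-AS1 (0.24) with library totals, and TSPOAP1-AS1 (0.0053) with upper-quartile scaling.

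In -Asn against +Asn, higher lncRNAs numbered 80 at a mean of at least 20 CPM and 21 without overlapping genes, and lower ones 30 with library totals, 30 in the 1.2-fold test, 18 at 20 CPM and 7 without overlaps. Regions were wider in 11 and narrower in 21 after centring, and narrower in 4 without a coding start in the window. Pairs moving together numbered 12 within 500 bp and 7 without overlapping spans, and apart 5 without overlapping spans. In -Asn+Fe against -Asn the same settings gave 33 and 13 higher, 30 higher in the 1.2-fold test, 17 and 4 lower, 12 lower in the 1.2-fold test, 1 pair together within 500 bp and 0 without overlapping spans, and 1 apart. In -Asn+Fe against +Asn they gave 83 and 26 higher, 26 lower with totals, 19 and 3 lower, 11 wider and 17 narrower after centring, 3 narrower without a coding start, 10 pairs together within 500 bp and 6 without overlapping spans, and 6 apart.

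Leaving out 1 library at a time gave, in -Asn against +Asn, 118 to 130 higher, 43 to 49 lower, 13 to 28 wider, 4 to 7 narrower, share differences of 0.507 to 0.542 percentage points, 18 to 21 pairs together and 8 to 13 apart. In -Asn+Fe against -Asn it gave 48 to 62 higher, 24 to 39 lower, 0 wider and 0 narrower, 0.163 to 0.198 points, 3 to 6 pairs together and 1 to 3 apart (1 without -Asn+Fe replicate 3). For -Asn+Fe against +Asn it gave 130 to 141 higher, 38 to 43 lower, 10 to 19 wider, 3 to 7 narrower, 0.698 to 0.714 points, 17 to 20 pairs together and 8 to 14 apart. A fit with the replicate number as a block, which the data do not show to pair the libraries (3 of 9 RNA libraries correlated best with their own number), gave 125 higher and 45 lower, 57 and 35, and 138 and 41. Genes under 1 CPM in +Asn rest on few counts there, and the peak files give positions without read counts.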

Other observations

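Values of coding genes beside or across some of the lncRNAs, outside the head-to-head pairs and chosen after their values were seen, are given as a description. Of all genes, 61.2% were called in -Asn against +Asn. AC016573.1 lies 54438 bp from STC2, which encodes stanniocalcin 2, a glycoprotein induced by amino acid and endoplasmic reticulum stress, and STC2 changed by log2 4.14 (adjusted p = 6.24e-14) in -Asn against +Asn. BOD1, 122930 bp from AC008632.1, changed by -0.03 (adjusted p = 0.774). VLDLR, a lipoprotein receptor that VLDLR-AS1 overlaps, changed by 1.51 (adjusted p = 2.1e-11). UQCRFS1, the nearest coding gene to LINC00662 at 1411315 bp, changed by 0.02 (adjusted p = 0.843), and CD83, 143209 bp from LINC01108, by 0.23 (adjusted p = 0.0534). MCTP2, 352716 bp from LINC02207, changed by 0.89 (adjusted p = 1.98e-07), and GAB2, an adaptor of receptor signalling 5634 bp from AP003086.1, by 1.28 (adjusted p = 3.93e-11). L3MBTL2, which AL035681.1 overlaps, changed by -0.15 (adjusted p = 0.0898), against 6.40 for the lncRNA.

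Among the lncRNAs that fell, AL161891.1 overlaps RFC3, a clamp loader of DNA replication, which changed by -1.597 (adjusted p = 1.75e-10), and DLEU2 overlaps TRIM13, at -1.26 (adjusted p = 1.1e-10). HTR7, 237855 bp from AL391704.1, changed by -1.52 (adjusted p = 0.000325). AC006329.1 went against IFT22, which it overlaps on the other strand and which changed by 0.99 (adjusted p = 4.96e-08). With iron, AL354809.1 and LHFPL6 both fell, LHFPL6 by -1.07 (adjusted p = 1.03e-06), as did AL139020.1 and TCL1A, the latter by -0.50 (adjusted p = 0.00155). ANKRD10-IT1 and ANKRD10 both fell without asparagine, ANKRD10 by -0.73 (adjusted p = 4.07e-07), and both rose with iron, ANKRD10 by 0.58 (adjusted p = 3.25e-05). TSPOAP1-AS1 fell with iron while TSPOAP1, on the other strand, changed by 0.66 (adjusted p = 0.000294). How far shared reads enter the values of overlapping genes was not tested.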
